A study of Homo sapiens with 6 samples.

Results

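MiR-221 and miR-222 are a pair of neighbouring miRNA genes that were followed here as 4 mature arms, hsa-miR-221-3p, hsa-miR-221-5p, hsa-miR-222-3p and hsa-miR-222-5p. They were taken by name from the class of known mature miRNAs, 4 of 1727 names, and all 4 were present in every library. The cells were BEAS-2B, an immortalised human bronchial epithelial line, and all libraries came from plasmid-treated cells. The control group was given the empty vector pcDNA3.1 (3 libraries) and the PRMT1 group was given pcDNA-PRMT1, a plasmid for over-expression of the arginine methyltransferase PRMT1 (3 libraries), each for 48 h. The comparison concerned the response of miRNAs to PRMT1. No label gives the replicates as cultures grown apart. The p-values therefore speak only of the spread between these libraries, which may be technical. The level of PRMT1 itself was not analysed here.

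Both miRNAs are cut from a long nuclear transcript by DROSHA and then by DICER, and an arm of each hairpin is loaded into Argonaute as the guide while the opposite arm is mostly degraded. The 3p arms of miR-221 and miR-222 are the usual guides. They are known for repressing the cell cycle inhibitors CDKN1B and CDKN1C and the receptor KIT, and in epithelial cells for promoting proliferation and epithelial-mesenchymal transition (EMT).

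The mature sequences are shown because the shared seed, bases 2 to 8 in capitals, joins the 3p arms into a single target family. They are from RefSeq on GRCh38.p14, written 5′ to 3′, and 3 of the 4 members were matched there.
hsa-miR-221-3p: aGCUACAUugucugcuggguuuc
hsa-miR-222-3p: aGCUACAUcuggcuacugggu
hsa-miR-222-5p: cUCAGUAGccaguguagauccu
The 3p arms had the same first 8 bases and were equal at 11 of the 21 positions of the shorter arm. Among 2370 mature names in the RefSeq table no further name had the seed of the 3p arms, and no other name had that of miR-222-5p. For each of these 3 arms, 0 other mature names held an 18-base window within 1 mismatch, so reads of that length or more could be told apart between these 3 arms.

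The hairpins are shown because reads were also counted against their precursor family, with the matched mature arms in capitals.
MIR221: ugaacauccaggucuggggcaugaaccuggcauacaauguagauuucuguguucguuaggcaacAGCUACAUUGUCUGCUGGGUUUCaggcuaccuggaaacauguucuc
MIR222: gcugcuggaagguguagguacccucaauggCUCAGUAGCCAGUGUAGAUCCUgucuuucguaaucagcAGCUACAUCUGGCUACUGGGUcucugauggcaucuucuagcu
MIR221 lies at chrX:45746157-45746266 and MIR222 at chrX:45747015-45747124 on the minus strand (GRCh38.p14), with 748 bases between them. In GENCODE release 29 on GRCh38 both hairpins lie in the intron of the long non-coding transcript MIR222HG-201 (chrX:45745211-45770274, minus strand). The longest run of bases that the hairpins had in common was 9.

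Libraries held 23.95 M to 25.79 M counts, of which known miRNAs took 11.54 M to 16.42 M. Levels are given as CPM, counts of a name scaled to the known miRNA counts of its library and then by TMM, and since a read spans a whole miRNA no length term was needed. Control library 2 stood apart, with the lowest TMM factor (0.761, against 0.986 to 1.11 in the other libraries) and with miR-21-5p at 66.0% of known miRNA counts (49.4% to 59.1% in the other libraries). Of the epithelial list of miR-200, miR-205 and miR-203, 7 of 7 miRNAs had enough counts to be tested, which does not make each of them abundant. Their summed level was 7746 to 10086 CPM in control and 7999 to 8876 CPM in PRMT1 libraries. Most of this sum came from miR-200a, miR-200b and miR-429. MiR-200a-3p stood at 4001 ± 707 CPM (SD, n = 3) in control and 4016 ± 366 CPM in PRMT1 libraries. MiR-429 stood at 2597 ± 132 and 2146 ± 400 CPM, and its groups did not overlap (adjusted p = 0.789 by the quasi-likelihood test of edgeR). Groups did not overlap in 2 of the 7 names, against 68 of all 668 tested names (10.2%). At an unadjusted p under 0.05 in that test there was 1 of the 7, against 36 of 668 (5.39%), and 0 of the 7 passed an adjusted p of 0.05. Both arms of miR-200b together had 2410 CPM as a mean of the 6 libraries. Together, miR-200c, miR-141, miR-205 and miR-203a made up only a small part of the sum, which says little of them. Summed over tested names, markers reached at most 131 CPM for blood (3 of 6 tested), 67.3 CPM for fibroblasts (3 of 4) and 12.5 CPM for muscle (2 of 3). The endothelial list of miR-126 arms (2 of 2) reached 2293 CPM and the neural list of miR-9-5p and miR-124-3p (2 of 2) reached 293 CPM. The liver marker miR-122-5p had too few counts to be tested.

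The guide arm hsa-miR-222-3p was the most abundant of the 4 arms. It was counted 205201, 230437 and 199769 times in control libraries 1 to 3 and 214520, 227001 and 223636 times in PRMT1 libraries 1 to 3. These counts placed it between rank 5 and rank 10 among the known miRNAs of a library, and at rank 7 of 668 tested names by mean CPM. Its level was 15060, 18439 and 15541 CPM in control libraries and 13958, 18667 and 18706 CPM in PRMT1 libraries. The lowest library was in the PRMT1 group, the control values lay inside the PRMT1 range, and the group means were 16347 ± 1828 CPM (SD, n = 3) and 17110 ± 2730 CPM (SD, n = 3). The log2 fold change of PRMT1 over control was 0.07 (SE 0.17, 95% interval -0.32 to 0.45, adjusted p = 0.965 by the quasi-likelihood test of edgeR). Its sign was negative with all classes of rows in the fit and without control library 1 or 3 or PRMT1 library 2 or 3.

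The other guide arm, hsa-miR-221-3p, was counted 52190, 80932 and 49182 times in control libraries and 59149, 49517 and 50651 times in PRMT1 libraries. It held rank 22 to 31 among the known miRNAs of a library. Its level was 3830, 6476 and 3826 CPM in control libraries and 3849, 4072 and 4237 CPM in PRMT1 libraries. Control library 2 was the highest, and the other 5 libraries lay within 3826 to 4237 CPM. Group means were 4711 ± 1529 CPM (SD, n = 3) in the control group against 4052 ± 195 CPM (SD, n = 3) in the PRMT1 group, and edgeR gave -0.22 as the log2 fold change (SE 0.23, 95% interval -0.73 to 0.29, adjusted p = 0.859). Without control library 2 the log2 fold change was 0.06.

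As a plain share of known miRNA counts, with no TMM factor, the spread of miR-221-3p was smaller. It took 0.421%, 0.493% and 0.426% of known miRNA counts in control libraries and 0.410%, 0.416% and 0.418% in PRMT1 libraries. On this scale the 3 PRMT1 libraries lay below the 3 control libraries, by a narrow margin between 0.418% and 0.421%, whose exact Clopper-Pearson 95% intervals of 0.414% to 0.421% and 0.417% to 0.425% overlapped. Groups that do not overlap were found on this scale in 56 of 668 names (8.38%), and 10 names (1.5%) lay lower in PRMT1 libraries in this way. The log2 fold change without TMM factors was -0.11 (SE 0.15). For miR-222-3p the shares were 1.66%, 1.40% and 1.73% in the control group, against 1.49%, 1.91% and 1.84% in the PRMT1 group, where control library 2 was the lowest. Intervals cover counting error only, since the sources used here name no molecular identifiers.

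The 5p arms, which are the usual passenger strands, were rare. The arm hsa-miR-221-5p was counted 256, 388 and 235 times in control libraries and 303, 314 and 315 times in PRMT1 libraries, equal to 18.8, 31.0 and 18.3 CPM and to 19.7, 25.8 and 26.3 CPM. Control library 2 was again the highest, and the PRMT1 values lay inside the control range. Its log2 fold change was 0.08 (SE 0.29, 95% interval -0.57 to 0.72, adjusted p = 0.983 by edgeR), 0.35 with control library 2 left out and -0.10 with control library 3 left out. The 5p arm of the other hairpin, hsa-miR-222-5p, was counted 28, 37 and 56 times in control libraries and 29, 26 and 45 times in PRMT1 libraries, equal to 2.06, 2.96 and 4.36 CPM and to 1.89, 2.14 and 3.76 CPM. The library numbered 3 was the highest in each group, and the groups overlapped. Its log2 fold change was -0.27 (SE 0.41, 95% interval -1.18 to 0.64, adjusted p = 0.929 by edgeR), -0.0015 without control library 3 and -0.64 without PRMT1 library 3.

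**Figure D1:**
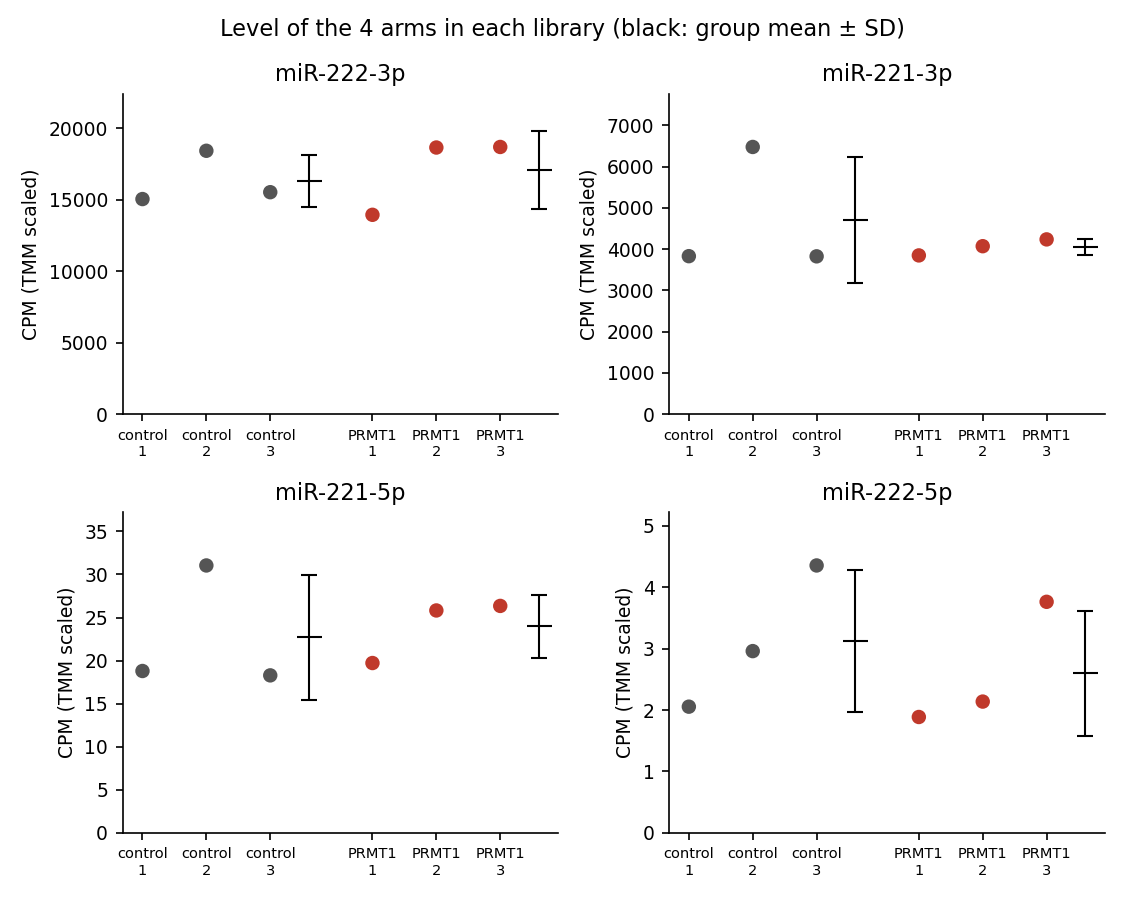
Level of each arm in CPM after TMM scaling (vertical axes from 0) in the 3 control libraries (grey) and the 3 PRMT1 libraries (red), with the group mean ± SD in black beside the points. MiR-221-3p and miR-221-5p were highest in control library 2, and the groups overlapped for all 4 arms.

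Of the 4 members, 0 passed an adjusted p of 0.05, as did 0 of 668 tested names (0%) with edgeR. At an unadjusted p under 0.05 there were 36 names (5.39%) and 0 members, whose unadjusted p ran from 0.362 to 0.793. DESeq2 called 4 names (0.232% of 1727), edgeR without a filter on low counts 9 names (0.521%) and limma-voom 0, and none of these was a member. Groups did not overlap in CPM in 68 names (10.2%), and in 0 of the 4 members. The median log2 fold change over the 668 names was 0.04. The 95% interval of each arm, as given above, holds no change as well as the changes that 3 libraries a group did not exclude. In bulk RNA, a change in the share of cells that make a miRNA and a change in its amount per cell cannot be told apart.

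**Figure D2:**
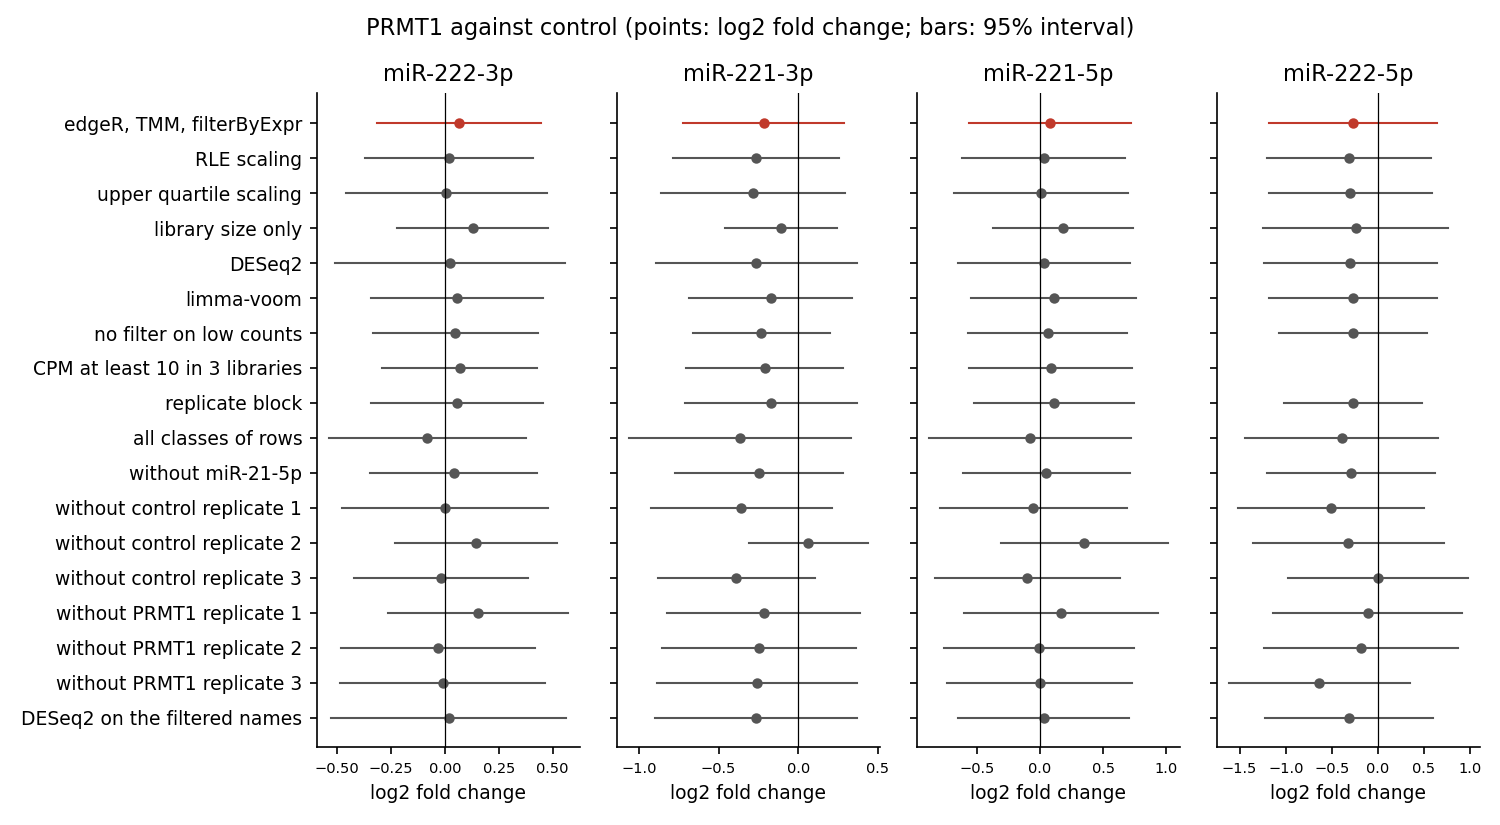
Log2 fold change of PRMT1 over control (points) with its 95% interval (bars) for each arm under the edgeR fit (red) and each other setting (grey). The interval spans 0 in every setting shown, and miR-222-5p was not tested with the filter of 10 CPM in 3 libraries.

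The order of the 4 arms was the same in each of the 6 libraries, with miR-222-3p above miR-221-3p, then miR-221-5p and miR-222-5p. No neighbours in this order came close to each other, the smallest steps being 2.85-fold between the 3p arms and 4.20-fold between the 5p arms. The order of the hairpins was therefore opposite on their 2 arms. On the 3p arm miR-222 exceeded miR-221 by 2.85-fold to 4.58-fold, while on the 5p arm miR-221 exceeded miR-222 by 4.20-fold to 12.1-fold. These are ratios of reads, which need not equal ratios of molecules.

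The arm ratio of miR-222 was the most 3p-sided among hairpins with both arms tested, at rank 1 of 168. Its 3p arm had 7329, 6228 and 3567 reads per 5p read in control libraries and 7397, 8731 and 4970 in PRMT1 libraries. On the log2 scale the arm ratio was 12.41 ± 0.54 (SD, n = 3) in the control group against 12.74 ± 0.42 (SD, n = 3) in the PRMT1 group. The libraries numbered 3 had the lowest values of their groups, and the groups overlapped. The difference of 0.33 had a two-sided exact permutation p of 0.5, and it was 0.019 without control library 3. The 5p arm was counted at most 56 times, and counting alone gave a log2 SD of 0.25 against 0.47 observed over the 6 libraries.

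MiR-221 was at rank 5 of the 168 hairpins, with 204, 209 and 209 reads of the 3p arm per 5p read in control libraries and 195, 158 and 161 in PRMT1 libraries. The 3 PRMT1 libraries lay below the 3 control libraries. The log2 arm ratio was 7.70 ± 0.02 (SD, n = 3) in the control group against 7.41 ± 0.17 (SD, n = 3) in the PRMT1 group, a difference of -0.28 with a two-sided exact permutation p of 0.1, the smallest that 3 against 3 libraries can give. Adjusted over the 4 ratios compared it was 0.4. The control SD of 0.02 lay below the log2 SD of 0.08 that counting alone gave, so it is too small to measure the spread between libraries. Groups did not overlap in the arm ratio of 19 of the 168 hairpins (11.3%), 5 of them (2.98%) lower in PRMT1 libraries, and by the size of the difference miR-221 was at rank 102. PRMT1 library 1, at 195, was near the control values, and its 95% counting interval on the log2 scale of 7.45 to 7.78 held all 3 control values. Leaving out each library in turn gave differences between -0.38 and -0.23.

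The arm ratio of miR-221 varied little between libraries. Its SD over the 6 libraries was 0.19 on the log2 scale, where counting alone gave 0.08. The median SD over the 168 hairpins was 0.55, and only miR-181a had a smaller one than miR-221, at 0.186 against 0.189. Rarer arms are counted less precisely, so the comparison was also made over the 81 hairpins whose rarer arm had a mean of at least 100 counts, where the median SD was 0.46 and miR-221 was again second smallest (rank 2). Across all 168 hairpins, 70 had more 3p reads and 98 more 5p reads, and the median size of the log2 ratio in either direction was 3.74.

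**Figure D3:**
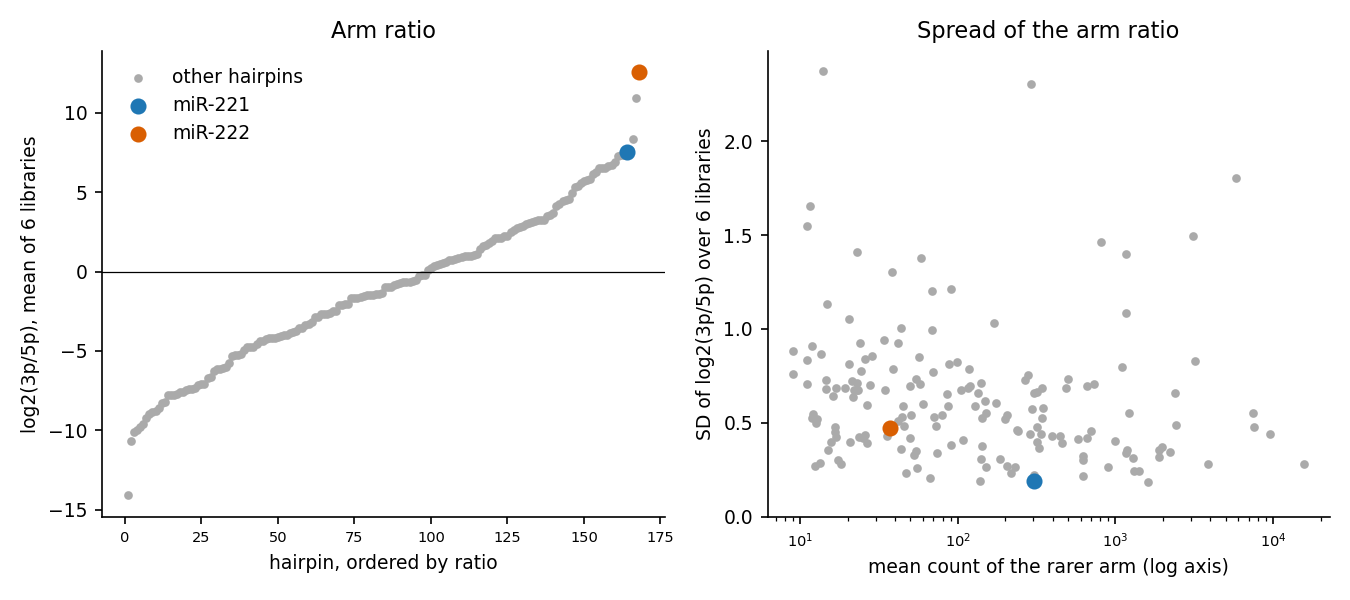
Left, log2 ratio of 3p to 5p counts (mean of 6 libraries) for 168 hairpins in ascending order; right, its SD over the 6 libraries against the mean count of the rarer arm (log axis). MiR-222 is the highest point on the left at 12.58 and miR-221 lies at 7.55, while on the right miR-221 is near the lower edge at 0.19.

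The balance between the hairpins was set against PRMT1 in the same way. Of the reads of the 3p arms, miR-222-3p made up 79.7%, 74.0% and 80.2% in control libraries, against 78.4%, 82.1% and 81.5% in PRMT1 libraries. Control library 2 had the lowest share, and its exact 95% interval of 73.9% to 74.2% did not reach that of any other library. The log2 ratio of miR-222-3p to miR-221-3p was 1.84 ± 0.28 (SD, n = 3) in the control group against 2.07 ± 0.18 (SD, n = 3) in the PRMT1 group, a difference of 0.23 with a two-sided exact permutation p of 0.3. Without control library 2 the difference was 0.07. On the 5p arm the log2 ratio of miR-222 to miR-221 was -2.88 ± 0.71 (SD, n = 3) and -3.26 ± 0.41 (SD, n = 3), a difference of -0.38 with a two-sided exact permutation p of 0.6, or 0.03 without control library 3. Adjusted over the 4 ratios, p was 0.6 for each of these and for the arm ratio of miR-222.

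**Figure D4:**
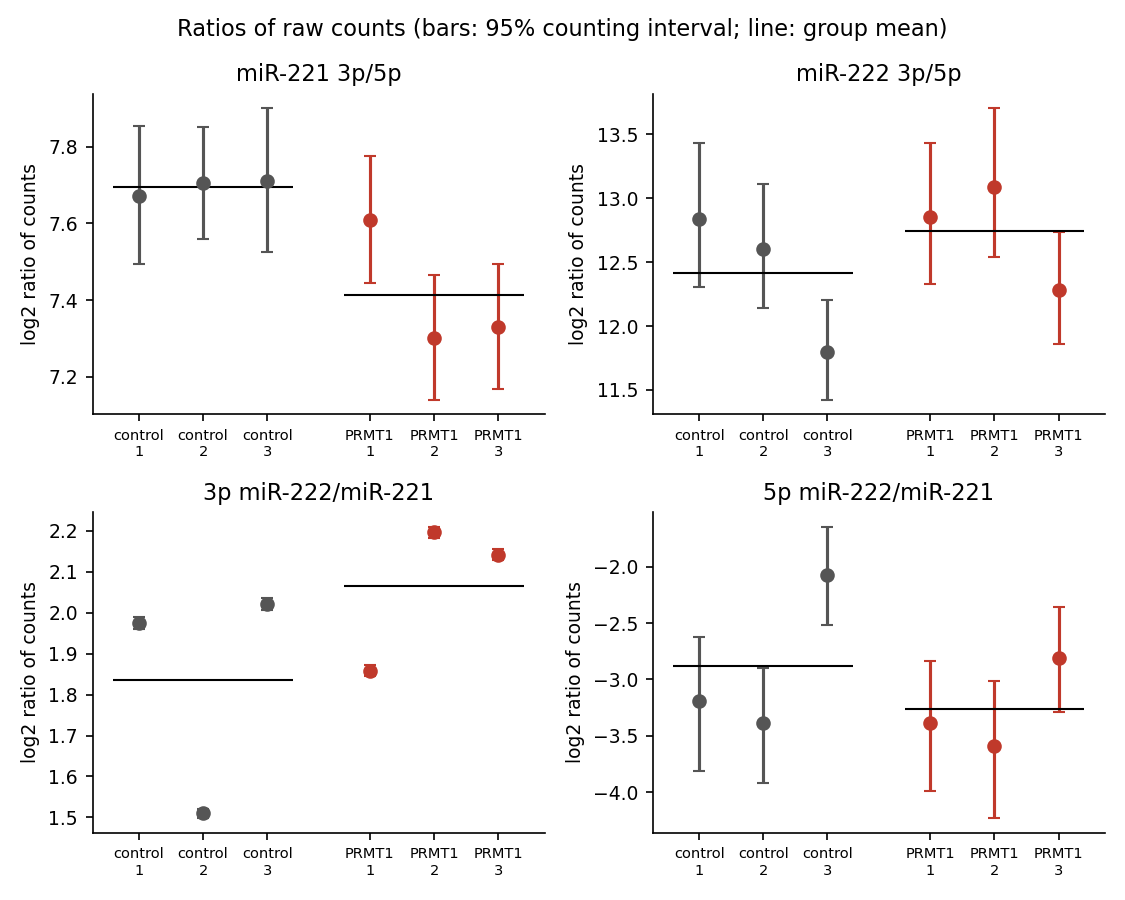
Log2 ratios of raw counts in each library (points, grey for control and red for PRMT1) with their exact 95% counting intervals and the group means (lines), for the arm ratios of each hairpin (upper panels) and the ratios between hairpins on each arm (lower panels). The groups overlap in 3 of the 4 panels, and the miR-221 arm ratio is lower in the PRMT1 libraries (7.41 against 7.70).

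Co-variation was measured over the 6 libraries as the correlation of log2 CPM for the 6 pairs of members. The arms of miR-221 had Pearson r = 0.81 (exact permutation p = 0.00139, the smallest that 720 pairings can give, adjusted p = 0.00833 over the 6 pairs) and Spearman rho = 1.0 (exact permutation p = 0.00278, adjusted p = 0.0167). Without the 2 libraries farthest from the median of miR-221-3p, control library 2 and PRMT1 library 3, r was 0.99. On the plain share of known miRNA counts, r was 0.08 (exact permutation p = 0.95) and rho -0.37 (exact permutation p = 0.497), and r was -0.90 without control library 2 and PRMT1 library 1, the 2 farthest on that scale. It was 0.73 (adjusted exact permutation p = 0.325) relative to all reads of a library, and -0.16 there without the same 2 libraries. With all 6 libraries Pearson r was positive on each of these scales, though near 0 on the plain share, where rho was negative. On the TMM scale r stayed between 0.80 and 0.96 when each library was left out in turn. The negative r values arose when 2 libraries were left out, on the plain share and relative to all reads. Values that are divided by the same scaling factor share it. On the TMM scale the median r between the 2 arms was 0.035 over the 168 hairpins with both arms tested. By this r miR-221 was at rank 5 and miR-222 at rank 41 from the highest. The cause was not tested.

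The other pairs did not pass. The 3p arms of the shared seed had r = 0.55 (exact permutation p = 0.193, adjusted p = 0.386) and rho = 0.6 (exact permutation p = 0.242), and r = 0.90 without control library 2 and PRMT1 library 3. On the plain share that r was -0.63. MiR-221-5p and miR-222-3p had r = 0.87 (exact permutation p = 0.0819, adjusted p = 0.246) and rho = 0.6 (exact permutation p = 0.242), and r = 0.95 without control libraries 2 and 3. On the plain share their r was 0.46 (exact permutation p = 0.338), and -0.86 without PRMT1 libraries 2 and 3. Relative to all reads of a library it was 0.91 (exact permutation p = 0.0181, adjusted p = 0.108), and 0.96 without control libraries 2 and 3. Relative to known miRNA counts without miR-21-5p it was 0.88 (adjusted exact permutation p = 0.183). On the TMM scale it stayed between 0.85 and 0.92 when each library was left out in turn. The log2 ratio of miR-222-3p to miR-221-5p had an SD of 0.18, which needs no scaling and was the smallest of the 6 pairs, next to 0.19 for the arms of miR-221 and 0.25 for the 3p arms. Pairs with miR-222-5p had r between 0.12 and 0.35 (exact permutation p from 0.463 to 0.878), rho between 0.03 and 0.6 (exact permutation p from 0.242 to 1.0) and SDs of 0.47 to 0.56. Without the 2 farthest libraries their r ran from -0.66 to 0.69.

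**Figure D5:**
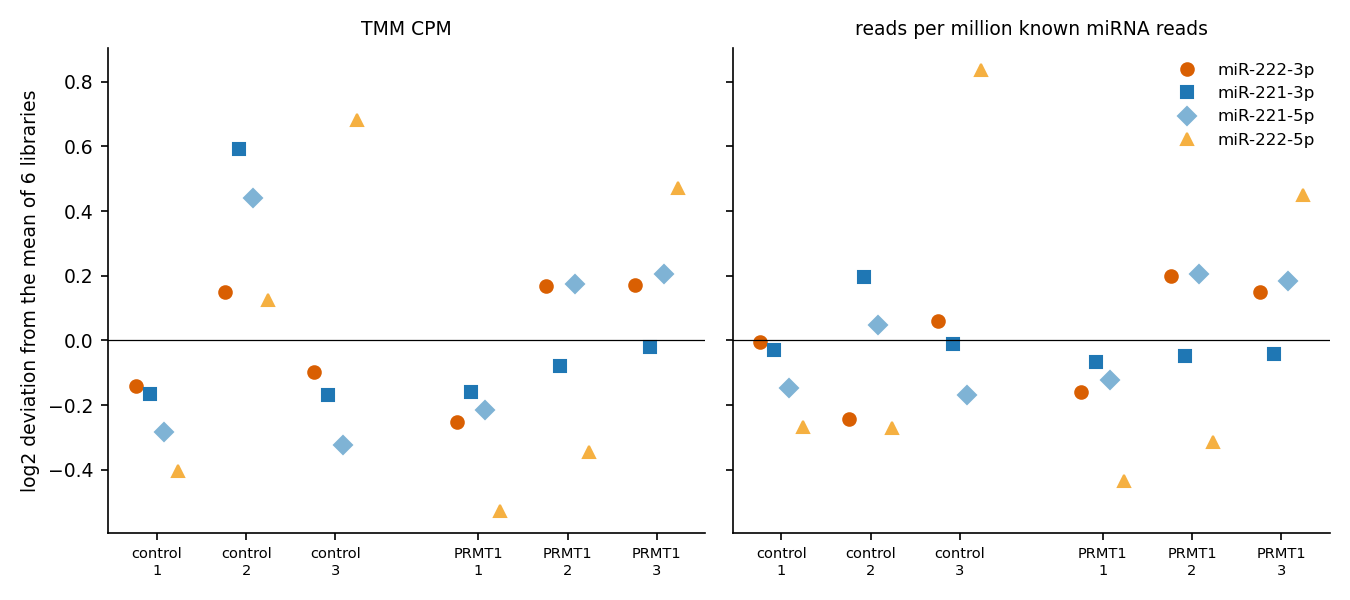
Log2 deviation of each arm from its own mean over the 6 libraries, as CPM after TMM scaling (left) and as reads relative to all known miRNA reads (right). In control library 2 all 4 arms lie above their means on the left, whereas on the right miR-222-3p and miR-222-5p lie below.

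The names whose pattern was most like the guides were taken by the highest Pearson r of log2 CPM over the 6 libraries. For each guide the candidates were 157 names of at least 100 CPM on average that were counted in every library, the other guide included. For miR-221-3p these were let-7g-5p (r = 0.95), a let-7 guide, miR-21-5p (r = 0.95), the most abundant miRNA, and miR-582-5p (r = 0.94). For miR-222-3p they were miR-224-5p (r = 0.94), miR-138-5p (r = 0.93) and miR-149-5p (r = 0.90). No name stood in both sets. As candidates for each other, miR-222-3p was at rank 36 for miR-221-3p, and miR-221-3p at rank 22 for miR-222-3p. These values describe 6 libraries that share a scaling, and were not tested. Control library 2 was the highest for miR-221-3p and for each of the names most like it, so their r may rest largely on that library. There let-7g-5p had 7553 CPM (5043 to 5572 CPM in the other libraries) and miR-21-5p 867954 CPM (443375 to 588602 CPM). MiR-582-5p had 266 CPM there (159 to 207 CPM in the other libraries). These r values were not computed without control library 2.

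A further row of the tables held reads of the mir-221 precursor family of Rfam, apart from the mature arms. It was the second most abundant of 157 precursor rows (rank 2), with 70401, 74349 and 58154 counts in control libraries and 82093, 70873 and 78438 in PRMT1 libraries. All rows, this one and the mature rows included, add up to the library total of the file headers. That equality does not show whether a read could be counted in both kinds of row. The precursor reads made up 21.5%, 19.3% and 18.9% of the summed precursor and member reads in control and 23.1%, 20.4% and 22.2% in PRMT1 libraries. PRMT1 library 1 had the highest share and control library 3 the lowest, and the groups overlapped at 20.4% to 21.5%. With all classes of rows in the edgeR fit, the fold change of this row was 0.04 on the log2 scale (SE 0.21, adjusted p = 0.998 over 1728 rows). The row does not say which hairpin or arm its reads came from, and it was 175 to 248 times larger than the 5p arms together, so the arm ratios above hold for the reads assigned to mature names only.

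All 4 members together took 2.08%, 1.90% and 2.16% of known miRNA counts in control and 1.90%, 2.33% and 2.26% in PRMT1 libraries. The lowest values of the 2 groups, in control library 2 and PRMT1 library 1, were nearly equal, and the groups overlapped.

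Other miRNAs with related roles were described by their lists. Among miRNAs known for promoting EMT and fibrosis, 0 of 12 passed, 5 lay above and 7 below 0, and the median log2 fold change was -0.02, against 360 above and 308 below 0 over all 668 names (53.9% above). With no TMM factors 8 lay above and 4 below 0, while the median over all 668 names moved from 0.04 to 0.09. The most abundant names of that list were miR-21-5p and miR-31-5p, the latter at 7569 ± 1473 CPM (SD, n = 3) in the control group against 7403 ± 300.2 CPM (SD, n = 3) in the PRMT1 group. Among miRNAs known to be induced by NF-kB or AP-1, 0 of 9 passed, with 2 above and 7 below 0 and a median of -0.06, or 5 above and 4 below 0 with no TMM factors and the same shift of all names. MiR-146a-5p of that list, a brake on inflammatory signalling, stood at 17239 ± 1969 and 14990 ± 1283 CPM. The lists share names, among them miR-21-5p.

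The nearest other miRNA cluster considered on the short arm of the X chromosome lies in the gene CLCN5 at Xp11.23. Of its 12 tested names 0 passed, 6 lay above and 6 below 0, and the median log2 fold change was 0.05. Its most abundant name, miR-532-5p, stood at 1377 ± 108 CPM (SD, n = 3) in the control group against 1344 ± 40.5 CPM (SD, n = 3) in the PRMT1 group. MiR-660-5p stood at 681 ± 228 and 776 ± 42.7 CPM. The median of the cluster was 0.24 without PRMT1 library 3 and -0.11 without PRMT1 library 1.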

How the data were processed

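Small RNA tables of 6 libraries were used, 3 per group, grouped by the genotype label. Per the file headers, each deposited count is a whole number of reads assigned to a feature, and the authors' TPM values (RPM, reads scaled to the library total without a length term) differed from that quotient by less than 0.005 and were not used further. Per the submitters' processing notes, HISAT, Bowtie2, RSEM and GRCh37.p13 were named without versions, and which tool counted reads was not given in the sources used here. For extraction, the labels' protocols name mRNA enrichment or rRNA removal and no size selection. Absent names were taken as 0. Known mature names were filtered with filterByExpr, which left 668 names, scaled by TMM and tested in edgeR 4.0.16 (R 4.3.3) by its quasi-likelihood F-test with robust fitting and Benjamini-Hochberg adjustment. SE was taken as the absolute log2 fold change over the square root of F. DESeq2 1.42.0 and limma 3.58.1 were alternatives, with other scalings, filters, a replicate block and omission of each library. Ratios of raw counts used exact permutation over 20 splits (scipy 1.17.1), and shares exact binomial intervals at 95%. The edgeR script was tested on simulated data. Members and lists were chosen with earlier results of these data known. Apart from cell type markers, named miRNAs were the 4 members, miR-21-5p, the 2 most abundant names of each of 3 lists and the 3 names most correlated with each 3p arm. A further list is not reported here. Names joined by commas were matched by each part. Sequences and positions are from RefSeq (GRCh38.p14) and GENCODE release 29, another build than that of the notes.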

Additional observations from a re-analysis of the deposited data

How the results depend on the processing

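The count of 0 names called was 4 with DESeq2, 3 with DESeq2 on the filtered names (an alternative chosen after seeing the data), 9 without a filter on low counts, 1 with the replicate block and 0 to 1 when each library was left out, the 1 arising without PRMT1 library 1. These calls held none of the members. The replicate block changed no call of a member. Control and PRMT1 libraries of equal number had deviations from their group means correlated at -0.23, 0.13 and -0.21. Libraries of unequal number ranged from -0.17 to 0.27. With 3 libraries a group these values cannot show whether libraries of equal number share a batch. Signs of fold changes near 0 were not stable. With all classes of rows, the log2 fold change was -0.080 for miR-221-5p and -0.081 for miR-222-3p. Leaving out each library gave -0.39 to 0.064 for miR-221-3p, -0.10 to 0.35 for miR-221-5p, -0.033 to 0.15 for miR-222-3p and -0.64 to -0.0015 for miR-222-5p. The group difference of the log2 ratio of miR-222 to miR-221 on the 5p arm ran from -0.63 to 0.029. The correlation of the miR-221 arms was 0.079 with library size only, 0.73 relative to all rows and 0.81 relative to known miRNA counts without miR-21-5p. The last had an adjusted exact permutation p of 0.05, at the threshold, while its rho of 1.0 passed (adjusted exact permutation p = 0.0167), and the other r values did not pass. With library size only, r was -0.63 for the 3p arms, -0.12 for miR-221-3p with miR-222-5p and -0.10 for the 5p arms. Relative to all rows r was -0.00052 for miR-221-3p with miR-222-5p, -0.19 for the 5p arms and -0.021 for the miR-222 arms, and without miR-21-5p it was -0.052 for miR-221-3p with miR-222-5p and -0.027 for the 5p arms. Leaving out each library gave r of -0.061 to 0.71 for the 5p arms. With all classes of rows the list medians were -0.15 (EMT and fibrosis) and -0.17 (NF-kB and AP-1), the last running from -0.19 to -0.042 when libraries were left out. The cause was not tested. MiR-222-5p could not be tested at 10 CPM in 3 libraries. Its 26 to 56 counts limit the precision of every ratio that holds it.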
